A study of Gallus gallus with 3 samples.

Results

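Genes for enzymes and complexes that remodel or modify chromatin, and for chaperones of the histone variant H2A.Z, were followed in DT40, a chicken line grown from a B-cell lymphoma and widely used for gene targeting. Members were the genes whose RefSeq accession on the array mapped to a chicken symbol beginning with one of a set of prefixes (for example SMARC, KDM, HDAC, CHD or ANP32). This gave 49 genes with 136 probes, out of 5382 genes that could be named on the array. Letters alone admitted 3 genes with no chromatin role, among them *EPCAM*, an epithelial adhesion molecule, and *KATNBL1*, which acts on microtubules. The gene table held 136 symbols that meet the prefixes, so the 49 are the part of these families that named probes cover, and the remainder are not analysed here.

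Total RNA came from 3 lines. The first was a double knock-out (DKO), read here as a knock-out of the H2A.Z genes, that carried H2A.Z1ΔC, read here as H2A.Z1 shortened at the C-terminus. The second was the DKO carrying full-length H2A.Z1, and the third was wild-type (WT) DT40. The labels do not say whether a line is 1 clone or what drives the introduced H2A.Z1, and the series states a single experiment per sample, so 1 single-colour (Cy3) array stands for each line. No test between lines was therefore possible, no p-values are given, and precision is limited by the number of arrays. In bulk RNA, fewer cells of a type and less RNA per cell cannot be told apart.

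H2A.Z replaces the ordinary histone H2A in a fraction of nucleosomes, often beside promoters. In vertebrates the SRCAP and TIP60/p400 complexes put H2A.Z into nucleosomes, and the chaperone ANP32E and the INO80 complex are known for taking it out. Other members move nucleosomes (SWI/SNF and CHD enzymes), add or remove acetyl and methyl groups on histones, bind those marks, or methylate DNA.

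Levels are log2 of the scanner's background-subtracted signal minus the 75th percentile of the same array, so 0 is a fairly bright probe and each unit is a doubling. Differences between lines are on the same log2 scale, and a gene's value is the mean over its probes that were well above background on all 3 arrays. A level can be compared between arrays for one gene, not between genes. The arrays of the full-length and WT samples shared slide 1, whereas the H2A.Z1ΔC array lay on slide 2, so slide and line cannot be told apart for H2A.Z1ΔC. The share of probes well above background was 68.7% to 72.6% per array. For the full-length sample there is a second set of values, in the series matrix, which is no multiple of its scanner signal (robust SD of the log2 ratio 0.322) and whose source array is unknown. For the H2A.Z1ΔC and WT samples the matrix is the scanner signal times a constant. Both sets are printed for many of the full-length values, but not for all. *H2AFZ*, the gene of H2A.Z1, had levels of -0.21 and -0.85 at its 2 probes in H2A.Z1ΔC cells and 0.81 and -0.31 in full-length cells (0.34 and -0.64 in the matrix), against 5.87 and 6.17 in WT. Whether these probes detect the introduced H2A.Z1 is not known. Of 14 B-cell markers on the array 13 were well above background on all arrays, and 9 of the 13 lay below WT in H2A.Z1ΔC cells and 7 in full-length cells. Their differences from WT ran from -1.71 (*CD72*) to 1.36 (*IRF4*) in H2A.Z1ΔC cells and from -1.08 (*IRF8*) to 1.12 (*IRF4*) in full-length cells, and *CD79B*, a subunit of the B-cell receptor, differed by 0.15 and 0.19. Of 5 T-cell markers 4 were measured and *CD4* was not. Their differences ran from -0.78 (*CD3D*) to 0.66 (*CD28*) in H2A.Z1ΔC cells and from -0.21 (*CD3D*) to 2.09 (*CD3E*) in full-length cells. *CD3E* stood at 3.72 there in the matrix. *CD3E* and *CD28* were dim, with WT levels of -5.60 and -6.20. The 2 measured *CD3E* probes gave 0.78 and 3.41 in full-length cells, and *CD28* had 1 measured probe. Of 3 fibroblast markers 2 were measured. *COL1A2* differed by 0.11 in H2A.Z1ΔC and 1.83 in full-length cells (0.22 in the matrix), and *COL3A1* by -1.17 and -0.23. Of 7 erythroid markers 3 were measured, all globin genes with 1 measured probe each, and the RNA preparation included globin removal. By the scanner all 3 lay below WT in both DKO lines, with medians of -0.53 in H2A.Z1ΔC and -0.71 in full-length cells. *HBA1* and *HBBA* among them were dim, with WT levels of -5.41 and -5.70. The part of these cell type markers in the results below was not tested.

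A total of 46 of the 49 genes were measured on all arrays, 35 of them by 2 or more probes and 11 by a single probe. Most stayed close to WT in both DKO lines. In H2A.Z1ΔC cells the 4 genes furthest from WT were all lower: *DNMT1* (the maintenance DNA methyltransferase), *KDM5B* (a demethylase of histone H3), *ING3* (a subunit of the TIP60 complex) and *BRD7* (a bromodomain subunit of a SWI/SNF complex). In full-length cells the 4 furthest by the scanner were also lower: *KDM5B*, *HDAC4* (a deacetylase), *DNMT1* and *BRD7*. With the matrix values the 4 furthest were *DNMT1* (-1.16), *ING3* (-0.91), *SMARCA2* (a SWI/SNF ATPase, -0.79) and *SETD1A* (a methyltransferase, -0.70). By the scanner the largest positive difference among these 46 genes was 0.79 for *CHD7*, a chromodomain remodeller, in H2A.Z1ΔC against full-length cells. With the matrix values that difference was 0.63, below the 0.71 of *YEATS4* in H2A.Z1ΔC against WT cells.

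In full-length against WT cells, 1 member was lower by 2-fold or more and 0 were higher, where 1.91% of all 4194 measured named genes were lower and 1.17% higher. At 1.5-fold, 4 members were lower (*KDM5B*, *HDAC4*, *DNMT1* and *BRD7*) and 0 higher, against 5.87% lower and 3.15% higher over all genes. The median difference of the members was -0.08, and that of all genes -0.02. Of the 46 members 30 lay below 0, as did 2240 of all 4194 genes. With arrays scaled by their medians the members' number was 26. That scaling also shifts all other genes, and their number under it is not given here. With the matrix values 1 member was lower by 2-fold and 0 higher, against 2.93% and 2.48% of all genes. At 1.5-fold 6 were lower and 1 higher, against 7.56% and 6.94%, around a median of -0.18 for members and -0.00 for all genes. The median absolute difference was 0.136 for members and 0.153 for all genes by the scanner, but 0.265 and 0.210 by the matrix. By comparison, the scanner and matrix values of the full-length sample differed by a median of 0.169 over the same members. The typical difference of a member between full-length and WT cells was thus below that gap by the scanner and above it by the matrix.

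In H2A.Z1ΔC against full-length cells, 0 members passed 2-fold in either direction, where 2.89% of all genes were higher and 1.48% lower. At 1.5-fold 1 member, *CHD7*, was higher and 0 were lower, against 7.53% and 5.13% of all genes. The members' median was -0.02 and that of all genes 0.01. With the matrix values 0 members passed 2-fold, against 1.65% of all genes higher and 1.07% lower, and the members' median was 0.00. At 1.5-fold *CHD7* was again the 1 member higher, and *SETD4* and *KDM5B* were lower, against 4.74% of all genes higher and 3.51% lower.

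H2A.Z1ΔC against WT cells gave 2 members lower by 2-fold or more, *DNMT1* and *KDM5B*, and 0 higher. Of all genes 3.41% were lower and 3.31% higher. At 1.5-fold 7 members were lower (*DNMT1*, *KDM5B*, *ING3*, *BRD7*, *SMARCA4*, *SETD1A* and *HDAC2*) and 1, *YEATS4*, higher, against 8.94% and 8.75% of all genes. The median was -0.12 for members and -0.00 for all genes. Of the 46 members 30 lay below 0, as did 2101 of all 4194 genes. At 2-fold these are counts of 0 to 2 genes, too few to set the members apart from all genes.

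**Figure D1:**
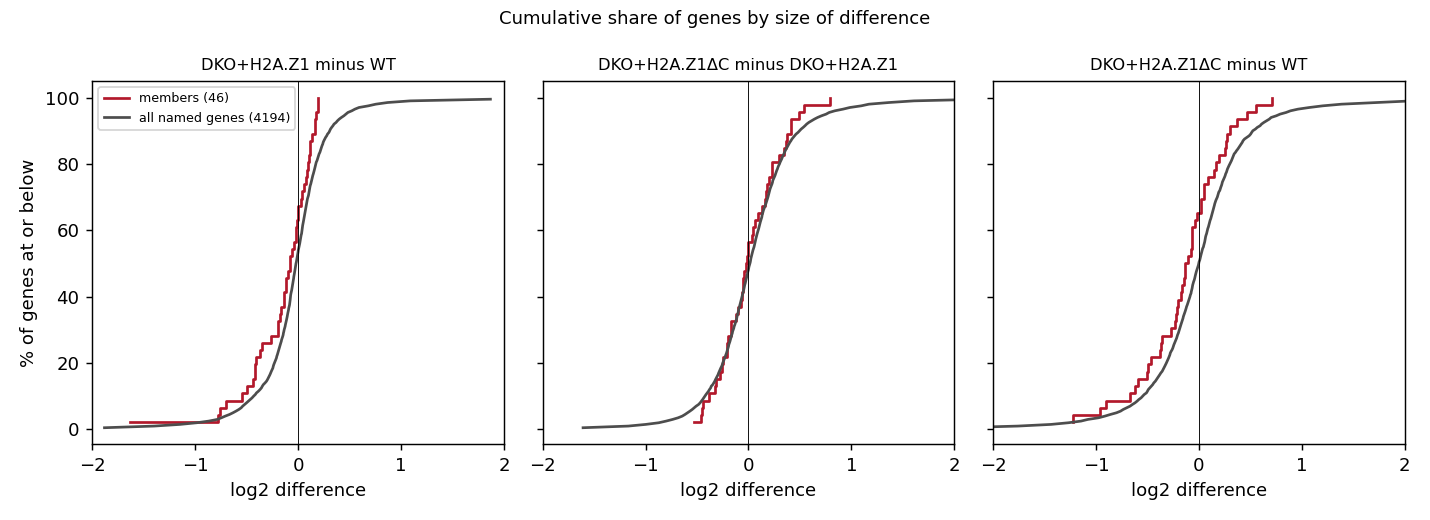
Cumulative share of genes (vertical axis, percent) at or below each log2 difference (horizontal axis) in 3 comparisons, for the 46 measured members (red steps) and all 4194 measured named genes (grey line). In both comparisons with wild type the members' curve lies left of the grey line over most of its length, with medians of -0.08 and -0.12, and no member lies above 0.79 in any panel.

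The machinery of H2A.Z exchange had 10 measured genes, and 0 of them passed 2-fold in any comparison. Only *ING3* and *YEATS4* passed 1.5-fold in any comparison. In H2A.Z1ΔC against WT cells *ING3* was lower and *YEATS4* higher by 1.5-fold, where 8.94% of all genes were lower and 8.75% higher. At 2-fold the shares of all genes there were 3.41% and 3.31%. With 10 genes these counts are too few to set the group apart. The median absolute difference there was 0.190 for the group and 0.243 for all genes. *ANP32E*, the H2A.Z-removing chaperone, had levels of 2.04 in H2A.Z1ΔC, 2.25 in full-length (2.21 in the matrix) and 2.18 in WT cells. Its 4 probes differed from WT by -0.36 to 0.04 in H2A.Z1ΔC cells. Against full-length cells H2A.Z1ΔC cells stood at -0.21, with all 4 probes lower (-0.34 to -0.06), and at -0.18 with the matrix values, again with all 4 lower. *ANP32B*, a relative not known to act on H2A.Z, had levels of 5.06, 5.02 (5.19 in the matrix) and 5.10 in H2A.Z1ΔC, full-length and WT cells. In full-length cells all 4 of its probes lay below WT by the scanner and all 4 above by the matrix. *RUVBL1*, an AAA+ ATPase shared by the SRCAP, TIP60 and INO80 complexes, stood at 2.38 in H2A.Z1ΔC, 2.39 in full-length (2.24 in the matrix) and 2.45 in WT cells.

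*ACTR6*, an actin-related subunit of the SRCAP complex, had levels of 3.54 in H2A.Z1ΔC, 3.36 in full-length and 3.27 in WT cells. Its differences from WT were 0.28 in H2A.Z1ΔC and 0.10 in full-length cells, positive at both probes in each. *ACTR5*, an INO80 subunit with 1 probe, differed from WT by 0.16 in H2A.Z1ΔC and 0.03 in full-length cells, but by 0.31 in full-length cells with the matrix values. *INO80*, the ATPase itself, differed by -0.22 and by -0.20, with the matrix putting full-length at -0.49. Of its 5 probes 3 lay below WT and 2 above in H2A.Z1ΔC cells, from -0.42 to 0.07. The mean of *MORF4L2*, of the family whose relative MRG15 belongs to the TIP60 complex, lay within 0.08 of WT in both DKO lines. Its 3 probes disagreed in H2A.Z1ΔC cells, from -0.30 to 0.19.

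*YEATS4* (GAS41), a reader of acetylated histones shared by the SRCAP and TIP60 complexes, lay furthest above WT among the 46 members measured on all arrays. Its level was 1.12 in H2A.Z1ΔC cells and 0.58 in full-length cells, against 0.41 in WT. H2A.Z1ΔC cells thus exceeded WT by 0.71, or 1.64-fold, with 0.65 and 0.77 at its 2 probes. The place of the full-length line depended on the value set: by the scanner it exceeded WT by 0.17, and by the matrix by 0.61, close to H2A.Z1ΔC.

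*ING3*, a reader of methylated H3 in the TIP60 complex, differed in the other direction at its 1 probe. The level was -2.65 in H2A.Z1ΔC cells and -2.12 in full-length cells, against -1.68 in WT, giving differences from WT of -0.96 (1.95-fold lower) and -0.44. Here too the matrix placed full-length cells beside H2A.Z1ΔC, at -0.91 from WT. *BRD8*, a bromodomain subunit of the same complex, differed from WT by -0.35 in H2A.Z1ΔC cells. In full-length cells it differed by -0.04 with scanner and -0.45 with matrix values. For these 3 genes the data do not settle whether the difference separates H2A.Z1ΔC from full-length cells or both DKO lines from WT.

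**Figure D2:**
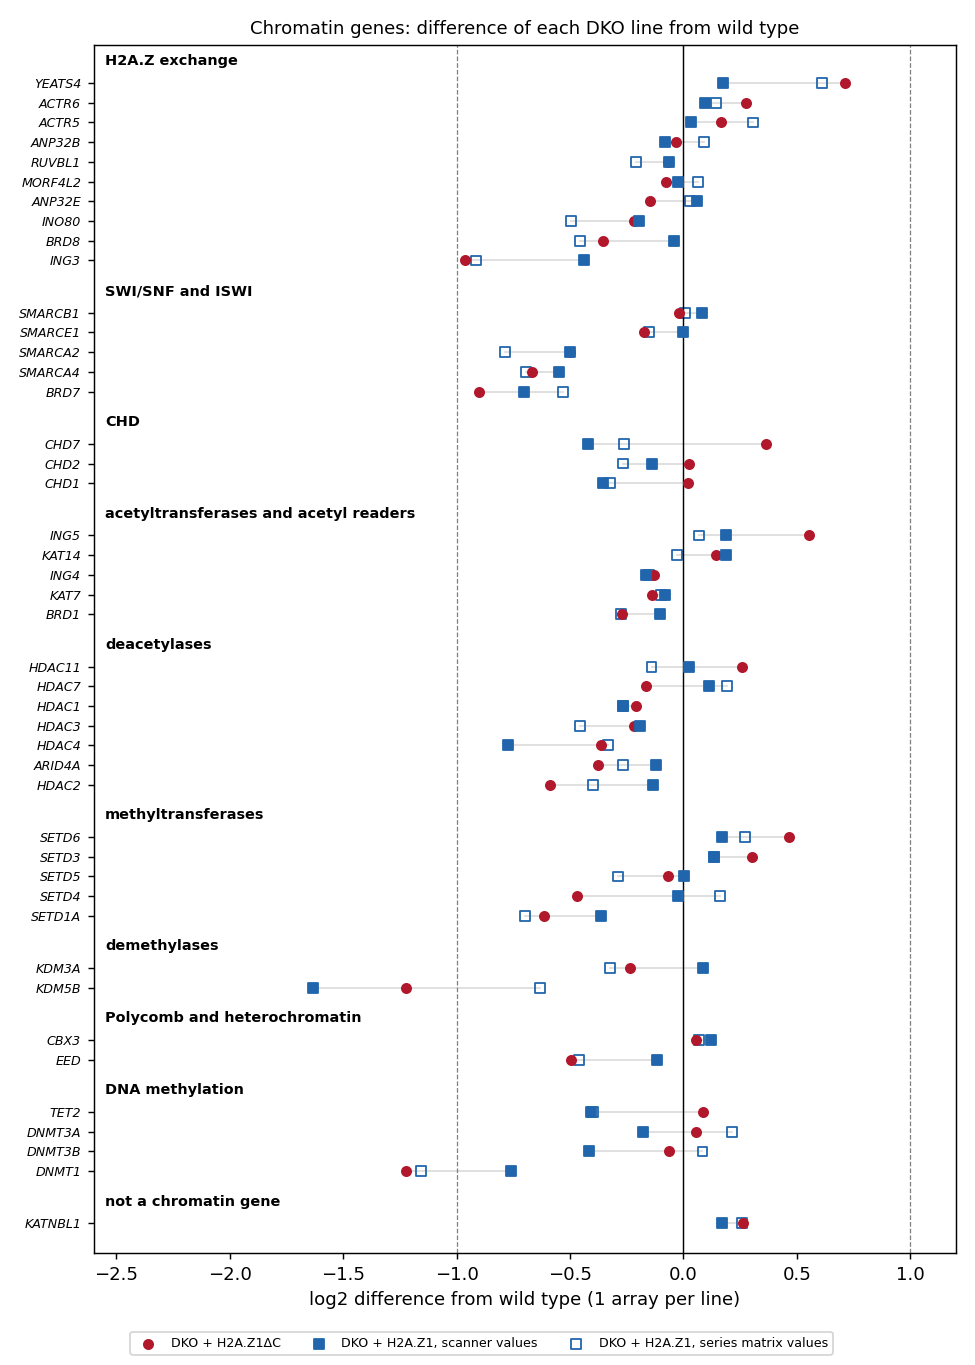
Log2 difference from wild type (horizontal axis) of the measured members reported singly, grouped by role, in DKO cells with H2A.Z1ΔC (red circles) and with full-length H2A.Z1 (blue squares, filled for scanner and open for series matrix values). Dashed lines mark 2-fold, and each symbol is 1 array. *KDM5B* and *DNMT1* lie beyond the left line in H2A.Z1ΔC cells, at -1.22 each, while *ANP32E*, *RUVBL1* and *SMARCB1* stay near 0.

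Within SWI/SNF, which slides and evicts nucleosomes, all 5 measured members lay below WT in H2A.Z1ΔC cells, as did 2101 of all 4194 genes. With 5 genes this count is too few to set the group apart, and the sizes differed by subunit. The ATPases and *BRD7* differed by -0.90 to -0.50 there, and the core and DNA-binding subunits lay within 0.17 of WT. Of 11 measured genes of SWI/SNF and the related ISWI and NuRD complexes without the prefixes, 6 lay above WT in H2A.Z1ΔC cells and 5 below. Their differences ran from -0.55 (*RBBP4*) to 0.88 (*DPF3*), with *PBRM1* at -0.28. The 1 *DPF3* probe was dim, with a WT level of -6.63. That list joins several complexes, so it does not show whether SWI/SNF as a whole was lower. *SMARCA4* (BRG1) had levels of 0.81 in H2A.Z1ΔC and 0.93 in full-length cells, against 1.48 in WT. It differed from WT by -0.67 and -0.55, and by -0.69 for the full-length matrix values, and both of its probes were lower in each case. Its brighter probe gave -0.39 in H2A.Z1ΔC and its dimmer probe -0.95. The alternative ATPase *SMARCA2* (BRM), with 1 probe, had levels of 2.37 in H2A.Z1ΔC and 2.38 in full-length cells, against 2.87 in WT. Its differences from WT were -0.50 in both DKO lines and -0.79 with the matrix values.

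*SMARCB1*, the core subunit, had levels of 2.70 in H2A.Z1ΔC, 2.80 in full-length and 2.72 in WT cells. One of its probes was printed 5 times, and the SD between those spots was 0.041 for H2A.Z1ΔC, 0.0316 for full-length and 0.0391 for WT cells. *SMARCE1*, a DNA-binding subunit, differed from WT by -0.17 in H2A.Z1ΔC cells and -0.00 in full-length cells (-0.15 in the matrix). Over 40 repeated probes the SD between spots was 0.072 for H2A.Z1ΔC, 0.063 for full-length and 0.081 for WT cells. The full-length differences of -0.55 for *SMARCA4* and -0.50 for *SMARCA2* are larger than this spotting error. That error comes from other probes and leaves out culture, labelling and hybridisation.

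*BRD7* was lower in both DKO lines at both of its probes. Levels were 4.12 and 3.36 in H2A.Z1ΔC cells and 4.26 and 3.61 in full-length cells, against 4.99 and 4.28 in WT. The gene was lower than WT by 1.87-fold in H2A.Z1ΔC and 1.63-fold in full-length cells, and the matrix gave full-length cells a difference of -0.53. Between its probes the difference ran from -0.93 to -0.87 in H2A.Z1ΔC and from -0.73 to -0.68 in full-length cells, which is technical spread within the arrays and says nothing of the spread between cultures.

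The neighbours of *BRD7* in the gene order of assembly GRCg7b were lower as well. All 10 measured genes flanking it, 5 on each side from *LPCAT2* to *PHKB*, were below WT in both DKO lines. Their median difference was -0.57 in H2A.Z1ΔC cells, with a range of -1.30 to -0.30. In full-length cells the median was -0.53 with a range of -0.82 to -0.07, and -0.55 with the matrix values. Of 4111 genes with 6 or more measured neighbours, 1.19% had every neighbour below WT in H2A.Z1ΔC and 2.29% in full-length cells, both measured against the same WT array. The *DNMT1* window had only 6 measured neighbours, from *CDC37* to *PGLS*, because no further measured named genes were placed on its chromosome. A window this small more easily has every neighbour below WT than the larger ones pooled in the shares above. All 6 were below WT in both lines, with medians of -0.37 in H2A.Z1ΔC and -0.41 in full-length cells. By contrast the 10 neighbours of *KDM5B* had medians of -0.12 in H2A.Z1ΔC and -0.07 in full-length cells. The part of the neighbourhood in the lower values of *BRD7* and *DNMT1* was not tested.

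**Figure D3:**
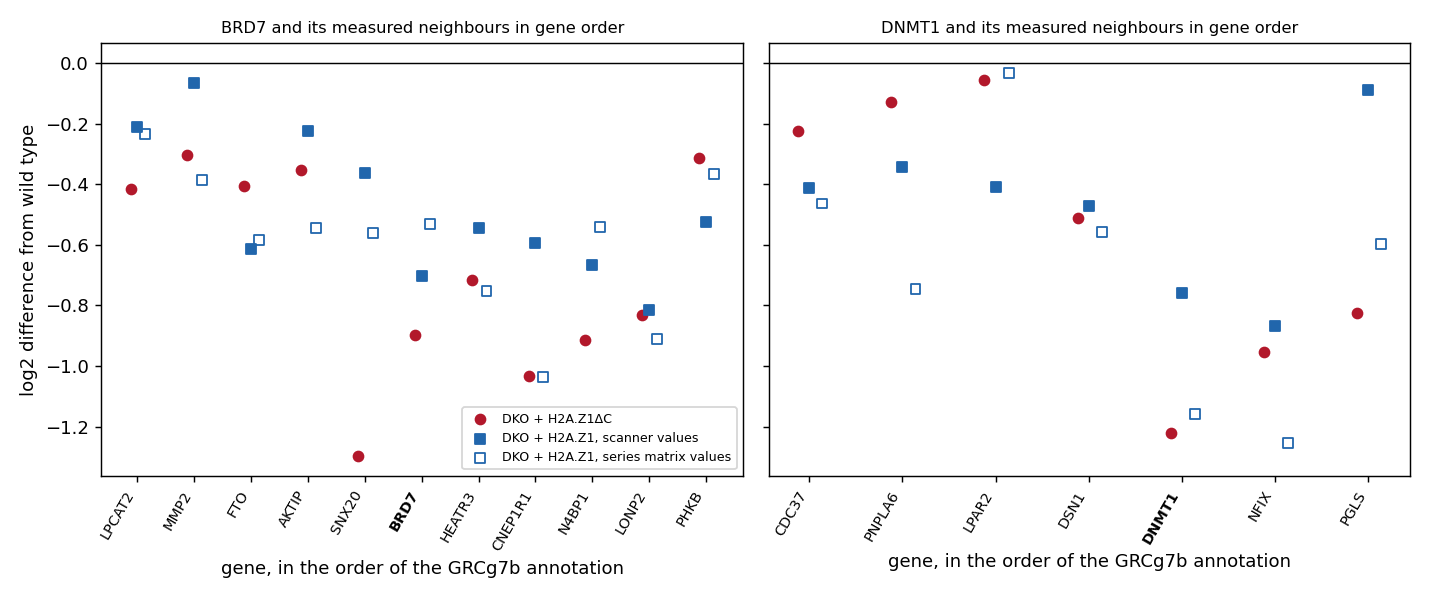
Log2 difference from wild type (vertical axis) of *BRD7* (left) and *DNMT1* (right) and of the measured genes beside them, in gene order (horizontal axis), for H2A.Z1ΔC (red circles) and full-length cells (blue squares, filled for scanner and open for matrix values). Every point lies below 0, from -1.30 for *SNX20* in H2A.Z1ΔC cells to -0.03 for *LPAR2* in the matrix.

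The 4 enzymes that add or oxidise DNA methylation differed from one another. *DNMT1*, which copies methylation to the new strand after replication, was lower in both DKO lines at all 3 of its probes. Its brightest probe had a level of 0.46 in H2A.Z1ΔC and 1.15 in full-length cells, against 1.86 in WT, and the other probes were lower too. The gene was 2.33-fold lower than WT in H2A.Z1ΔC cells (difference -1.22, probes -1.51 to -0.76) and 1.69-fold lower in full-length cells (-0.76, probes -0.83 to -0.71). With the matrix values the full-length difference was -1.16. The gap between the DKO lines was therefore -0.46 by the scanner and -0.06 by the matrix, where the dimmest probe changed sign to 0.45, whereas both lines lay below WT at all 3 probes in either set.

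Of the de novo methyltransferases, the brighter *DNMT3A* probe had levels of 0.37 in H2A.Z1ΔC, 0.14 in full-length (0.53 in the matrix) and 0.32 in WT cells. Its second probe was not well above background in H2A.Z1ΔC cells. Its undetected level there was 4.15-fold lower than in WT and 3.17-fold lower than in full-length cells by the scanner. The probes of this gene thus disagree. The full-length sample's matrix value at that probe was -7.15, beside -7.53 in H2A.Z1ΔC and -5.47 in WT cells, so the gap between the DKO lines was -0.38 with the matrix. *DNMT3B* had probes of opposite sign in H2A.Z1ΔC cells, 0.47 and -0.60 from WT, and differed by -0.42 in full-length cells by the scanner and 0.08 by the matrix. *TET2*, which oxidises methylcytosine, had levels of -4.06 in H2A.Z1ΔC, -4.56 in full-length and -4.15 in WT cells. It was lower in full-length cells than in WT by 0.41 with the scanner and by 0.40 with the matrix values, and lay at 0.09 from WT in H2A.Z1ΔC cells.

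The 3 CHD remodellers, like *TET2*, had their lowest mean in full-length and their highest in H2A.Z1ΔC cells. Of the 46 members 6 had this order (13.0%), as did 18.1% of all genes. *CHD7*, mutated in human CHARGE syndrome, was measured by 7 probes. Its mean level was -1.40 in H2A.Z1ΔC and -2.19 in full-length cells, against -1.77 in WT. All 7 probes were higher in H2A.Z1ΔC than in full-length cells, by 0.55 to 1.03, and all 7 were lower in full-length cells than in WT. The differences were 0.79 between the DKO lines and -0.42 between full-length and WT cells. The matrix values gave 0.63, again with all 7 probes higher, and -0.26, with 6 of 7 probes lower. *CHD1*, a remodeller that binds methylated H3 in transcribed genes, was also measured by 7 probes. Its levels were -1.14 in H2A.Z1ΔC, -1.51 in full-length and -1.16 in WT cells, and every probe was lower in full-length cells than in either other line. In the matrix the full-length level was -1.48, and 6 of 7 probes were lower than in either other line, the brightest being the exception. *CHD2* had levels of -1.22, -1.39 and -1.25 in H2A.Z1ΔC, full-length and WT cells, a difference of -0.14 in full-length cells against WT (-0.26 in the matrix). Its 4 probes disagree, since 1 was higher in full-length cells than in WT, by 0.05, and had an H2A.Z1ΔC minus full-length difference of -0.22.

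**Figure D4:**
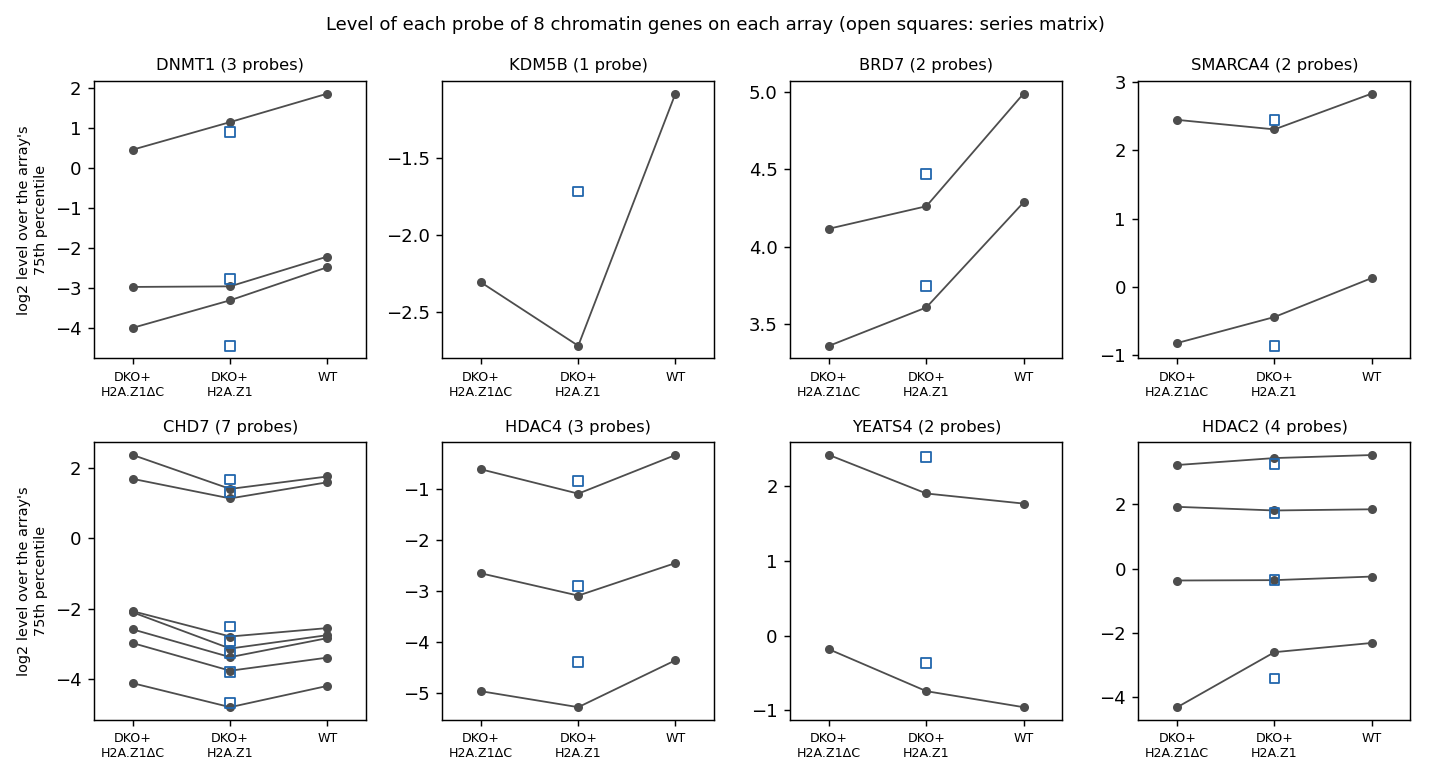
Log2 level over the array's 75th percentile (vertical axis) of each probe of 8 members on the H2A.Z1ΔC, full-length and wild-type arrays (horizontal axis). Lines join the values of 1 probe, and open squares mark the full-length sample's matrix values. All 3 *DNMT1* and both *BRD7* probes are highest in wild type, and the *HDAC2* probes disagree. All 7 *CHD7* probes dip in full-length cells by the scanner, and 6 of 7 lie below wild type there in the matrix.

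Histone demethylases were represented by 2 genes. *KDM5B* (JARID1B), which removes methyl groups from H3 at promoters, had 1 probe with levels of -2.31 in H2A.Z1ΔC and -2.72 in full-length cells, against -1.09 in WT. This is 2.33-fold lower in H2A.Z1ΔC cells (-1.22) and 3.10-fold lower in full-length cells (-1.63). The matrix value of the full-length sample was -1.72, or -0.63 from WT, so the scanner and matrix values of that sample differed by 0.999. *KDM5B* was the 1 member of 46 for which the value sets differed by 1.5-fold or more, as 381 of all 4194 genes did. Both sets put it below WT, but against full-length cells H2A.Z1ΔC cells stood at 0.41 by the scanner and -0.59 by the matrix. *KDM3A*, a demethylase of another H3 lysine, differed from WT by -0.24 in H2A.Z1ΔC cells and by 0.09 in full-length cells, or -0.32 with the matrix values.

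Deacetylases remove acetyl groups from histones and other proteins. In H2A.Z1ΔC cells 6 of the 7 measured members of this group were below WT, as were 2101 of all 4194 genes. The group includes *ARID4A*, a subunit of a SIN3 deacetylase complex, which differed by -0.38. Sirtuins, deacetylases without the prefixes, were not counted and ran from -0.37 (*SIRT2*) to 0.37 (*SIRT1*) in that comparison. *HDAC4*, a class II enzyme, was lower in full-length cells at all 3 probes, with a mean level of -2.75 in H2A.Z1ΔC and -3.16 in full-length cells, against -2.38 in WT. Its difference of -0.77 between full-length and WT cells (1.71-fold lower) became -0.33 with the matrix values, and H2A.Z1ΔC minus full-length was 0.41 by the scanner and -0.03 by the matrix. *HDAC2*, a class I enzyme of the NuRD and SIN3 complexes, reached 1.5-fold in H2A.Z1ΔC against WT (-0.59) through its dimmest probe, at -1.99. Its other 3 probes lay between -0.31 and 0.08. *HDAC1* shows the same disagreement, with -1.20 at one probe and -0.11 to 0.34 at the other 4 in that comparison. *HDAC3* differed from WT by -0.22 in H2A.Z1ΔC and -0.19 in full-length cells (-0.45 in the matrix). *HDAC7* differed by -0.16 and 0.11 (0.19 in the matrix), and *HDAC11* by 0.26 and 0.03 (-0.14 in the matrix).

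Of the 5 acetyltransferase subunits and acetyl readers not placed in a group above, 0 passed 1.5-fold in any comparison. In H2A.Z1ΔC against WT cells 8.94% of all genes were lower by 1.5-fold and 8.75% higher, so 5 genes are too few to set this group apart. *YEATS4*, *BRD7* and *ING3*, which did pass 1.5-fold, were counted with their complexes above. *ING5*, a subunit of the HBO1 and MOZ complexes with 1 probe, had levels of -0.93 in H2A.Z1ΔC and -1.30 in full-length cells, against -1.49 in WT, a difference of 0.56 in H2A.Z1ΔC cells. *KAT7*, the HBO1 enzyme itself, differed from WT by -0.14 in H2A.Z1ΔC and -0.08 in full-length cells. *KAT14*, of the ATAC complex, differed by 0.15 and 0.19 (-0.03 in the matrix), *ING4* by -0.13 and -0.17, and *BRD1*, a MOZ and HBO1 scaffold, by -0.27 and -0.10 (-0.27 in the matrix).

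Among methyltransferases *SETD1A*, which methylates H3 at active promoters, was lower at its 1 probe. Levels were 1.73 in H2A.Z1ΔC and 1.99 in full-length cells, against 2.35 in WT, that is 1.53-fold lower in H2A.Z1ΔC cells (-0.62). The full-length difference was -0.36 by the scanner and -0.70 by the matrix. *SETD6*, a lysine methyltransferase that also acts on the NF-kappaB subunit RelA, was higher in H2A.Z1ΔC cells than in WT by 0.47, with 0.59 and 0.65 at its brighter probes and 0.16 at the dimmest. *SETD3*, an actin histidine methyltransferase, differed from WT by 0.30 in H2A.Z1ΔC and 0.13 in full-length cells. *SETD4* stood at -0.47 and -0.02 (0.16 in the matrix), and *SETD5* at -0.07 and 0.00 (-0.29 in the matrix).

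In the Polycomb and heterochromatin group, *EED*, the subunit that reads methylated H3 in the Polycomb complex that writes it, had levels of 0.91 in H2A.Z1ΔC and 1.29 in full-length cells, against 1.40 in WT. All 3 probes were lower in both DKO lines, with a difference of -0.49 in H2A.Z1ΔC cells. In full-length cells it was -0.12 by the scanner and -0.46 by the matrix. *CBX3*, the heterochromatin protein HP1 gamma, differed from WT by 0.05 in H2A.Z1ΔC and 0.12 in full-length cells, with probes from -0.43 to 0.46 in H2A.Z1ΔC cells.

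The 3 remaining members were not well above background on every array. *ARID5B*, a DNA-binding partner of a histone demethylase, was well above background on the H2A.Z1ΔC array alone, where its level of -6.11 was at least 2.27-fold higher than in full-length cells and at least 2.13-fold higher than in WT. Its matrix level in the full-length sample was -7.41. *HDAC9* was likewise detected on that array by 1 of its 3 probes, at least 1.83-fold above full-length and at least 1.72-fold above WT cells. The full-length sample's matrix value at that probe was -6.40, beside an H2A.Z1ΔC level of -6.41. *EPCAM* was not well above background on any array. *KATNBL1*, which was measured, differed from WT by 0.26 in H2A.Z1ΔC and 0.17 in full-length cells.

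Genes that work with these complexes but do not carry the prefixes were counted from 4 lists, in which 43 of 44 genes on the array were measured. In full-length against WT cells 0 of the 43 passed 2-fold, where 1.17% of all genes were higher and 1.91% lower. In H2A.Z1ΔC against full-length cells 2 were higher and 0 lower, where 2.89% of all genes were higher and 1.48% lower. In H2A.Z1ΔC against WT cells 1, *JAZF1*, was higher and 0 lower, where 3.31% and 3.41% of all genes were. The 2 genes were *JAZF1*, a TIP60-complex subunit linked to H2A.Z, and *BMI1*, a Polycomb ring-finger protein. *JAZF1* had levels of -0.05 in H2A.Z1ΔC and -1.29 in full-length cells, against -1.15 in WT. Its mean was thus 2.36-fold higher than in full-length cells and 2.14-fold higher than in WT. Its probes gave 0.997 and 1.47 against full-length and 0.74 and 1.46 against WT cells, and the matrix put full-length cells at -0.68. *BMI1*, with 1 probe, had levels of -1.68 in H2A.Z1ΔC, -2.81 in full-length and -2.28 in WT cells, and was higher than in full-length cells by 1.13 with the scanner and 0.63 with the matrix values, so neither gene reached 2-fold between the DKO lines with the matrix. The median over the 43 genes was 0.03 in H2A.Z1ΔC against full-length and 0.00 against WT cells, and -0.02 in full-length against WT cells.

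Over the measured members with 2 or more probes, all probes had the same sign in 25 of 35 genes for full-length against WT, in 18 for H2A.Z1ΔC against full-length and in 20 for H2A.Z1ΔC against WT. Among the genes of these that differed by 1.5-fold, the probes agreed in sign in 3 of 3, 1 of 1 and 4 of 5 genes, the exception being *HDAC2*. By array, *BRD7*, *DNMT1* and *KDM5B* stood above both DKO lines by 1.5-fold or more in WT while the DKO lines differed by less, where 2.55% of all genes did so and 1.07% stood below. In this way 0 members stood apart in H2A.Z1ΔC cells (3.65% of all genes higher and 2.43% lower) or in full-length cells (0.548% and 1.14%). With the matrix values the genes higher in WT by this rule were *DNMT1*, *ING3*, *SETD1A* and *SMARCA4*, and *YEATS4* was lower in WT, as were 3.96% and 3.93% of all genes. *DNMT1* was thus the one member that met this rule in WT under both sets of full-length values. Some others missed the limit of 0.585 narrowly. With the matrix *KDM5B* was below WT by 1.5-fold in both DKO lines, but those lines differed by -0.59. In full-length cells *BRD7* stood at -0.53 from WT with the matrix, and *SMARCA4* at -0.55 with the scanner.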

How the data were processed

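Each of the 3 lines gave total RNA for 1 Cy3 Agilent chicken array. Per the labels' protocols, RNA came from a blood kit with red-cell lysis and globin removal. Per the file headers, Feature Extraction 11.5.1.1 gave the deposited intensity of each spot, background-subtracted and spatially detrended within the array. The deposited series matrix holds a second intensity on a linear scale whose making is not given in the sources used here. Groups came from the sample titles.

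Control spots were left out, as were spots with an outlier flag on any array, which removed 7 probes and left 43596. No spot was saturated (0 spots). Accessions without versions were matched to a RefSeq gene table of assembly GRCg7b, naming 11934 probes (27.4%). A gene entered a comparison when at least 1 probe was well above background on all arrays, and was called at 2-fold, with 1.5-fold as a second threshold. Levels were scaled to each array's 75th percentile and repeated spots averaged. Where a probe was dim on one array, its fold was taken against the higher of its own level and the lowest level well above background. A dim probe can lie above that lowest level, as the second *DNMT3A* probe did (-7.53 against -7.60 in H2A.Z1ΔC cells). Such a fold is therefore only an approximate bound.

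Named genes were all measured H2A.Z exchange members, those called, the 8 largest positive and negative differences per comparison, partner genes called at 2-fold, and the remaining members for completeness; a few genes counted among the members and markers are not reported singly here. The members and lists were chosen with earlier results of these data known, and the neighbour windows (up to 5 measured genes on each side) after the values were seen. Alternatives covered scaling, normexp, the matrix values, probe choice, filters and threshold. Calculations used Python 3.11.15 and limma 3.58.1 and were tested on simulated data.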

Additional observations from a re-analysis of the deposited data

How the results depend on the processing

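With 1 array per group no replicate could be left out. No paired analysis was possible because each group had 1 array. The count of members called at 2-fold was 1 in full-length against WT, 0 in H2A.Z1ΔC against full-length and 2 in H2A.Z1ΔC against WT. It became 4, 1 and 8 at 1.5-fold. Over probes brighter than the median it became 0 in the first and 1 in the last comparison, where the probe of *KDM5B* is left out as too dim. Without the background filter, with values floored, *ARID5B* was added as higher in both H2A.Z1ΔC comparisons, with counts of 1 against full-length and 3 against WT. In full-length against WT the count stayed at 1 with the matrix values but the gene was *DNMT1* (-1.16) in place of *KDM5B* (-0.63). *ING3* passed 2-fold in H2A.Z1ΔC against WT under median scaling (-1.02) and under quantile normalization. The slide could not be fitted as a block. The members' median ran from -0.18 (matrix) to -0.04 (quantile) in full-length against WT, from -0.12 (median scaling) to 0.03 (brightest probe) in H2A.Z1ΔC against full-length, and from -0.18 (median scaling) to -0.08 (normexp) in H2A.Z1ΔC against WT. Median scaling shifts every gene of a comparison by the same amount, so its part of these ranges is not particular to the members. Leaving out the 3 non-chromatin genes, added after seeing the data, gave -0.09, -0.02 and -0.13 in the same comparisons. Floored values moved the median of all genes in H2A.Z1ΔC against WT to -0.10. *DNMT1* stayed between -1.40 and -1.03 in H2A.Z1ΔC against WT, *BRD7* between -0.96 and -0.82, and *CHD7* between 0.61 and 0.96 against full-length cells. Dim probes limit *TET2*, *HDAC9*, *ARID5B*, *DPF3* and the second *DNMT3A* probe.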
